A study of Mus musculus with 48 samples.

Results

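The response of brain microglia to systemic IL1B was followed over 5 days, as the difference between the IL1B effect at P10 and the IL1B effect at P5. Microglia were isolated as CD11B+ cells, and 24 of the 48 arrays of the series hold their RNA, 6 in each of 4 groups (PBS or IL1B, at P5 or P10). All groups come from male Swiss pups injected intraperitoneally from P1 to P5 with PBS or with IL1B at 10 ng/g of body weight. The P5 groups were collected 2 h after the last injection and the P10 groups 5 days after it, with no further injection in between. The labels give the strain as swiss and the study's methods as OF1, an outbred Swiss line, and the methods place the P5 collection 4 h after the injection. Brains were dissociated, O4+ cells were taken out with magnetic beads and CD11B+ cells were then taken from the same suspension, so the gate holds any CD11B+ cell of the brain and its vessels. For each of 55681 probes, the P10 response (IL1B minus PBS) was compared with the P5 response, and the members described here are the probes and genes whose response faded, lasted, appeared late or turned round. The prenatal and perinatal inflammation that accompanies preterm birth is the condition this model stands for.

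IL1B binds the receptor IL1R1 and its partner IL1RAP, and through MYD88 and the IRAK kinases it activates NF-kappaB, which switches on cytokines, chemokines, acute phase genes and its own inhibitors. A decoy receptor, IL1R2, and an antagonist, IL1RN, limit the signal. Systemic IL1B also sets off IL6, which acts through STAT3, and the release of glucocorticoids from the adrenal gland. Microglia are the resident macrophages of the brain, and in the first postnatal days many of them still divide.

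Levels are log2 intensities, quantile-normalized over the 24 arrays, and are given for each group as the lowest, the median and the highest of its 6 arrays. A response is the difference between the mean levels of IL1B and PBS arrays on this log2 scale, and the word difference is kept for the P10 response minus the P5 response. Each was tested with limma in a fit of all 4 groups, with adjusted p-values (Benjamini-Hochberg) over all 55681 probes. For a call, a response needed an adjusted p under 0.05 and medians of both groups that differed more than 1.5-fold, and a difference needed only an adjusted p under 0.05.

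Each of the 16 microglia markers exceeded background on all 24 arrays, and their mean level lay between 15.55 and 16.35 on every array. With PBS and IL1B, the group means were 15.81 and 15.60 at P5 and 16.26 and 16.11 at P10. At P5, 5 of the 16 markers were called lower with IL1B, against 5.97% of all probes. Some arrays stood apart. P10 PBS replicate 6 lay with the P10 IL1B arrays on 1 set of probes and with its own group on another. On the 2428 probes called higher at P5, its median deviation from the P10 PBS group was 0.32, against -0.08 to 0.02 for the other P10 PBS arrays and 0.21 to 0.37 for the P10 IL1B arrays. On the 3323 probes called lower at P5 its median deviation was 0.02, within the -0.06 to 0.09 of the other P10 PBS arrays and above the -0.10 to -0.03 of the P10 IL1B arrays. Its neutrophil and monocyte markers averaged 11.79, against 9.37 to 9.91 on the other P10 PBS arrays, and its erythroid markers averaged 12.06, against 9.86 to 10.75. P5 PBS replicate 5 held more astrocyte signal, with a mean of 10.90 over 7 markers against 8.43 to 9.35 on the other P5 PBS arrays. Counts of P10 calls and the P10 responses that turn on this array are therefore given with and without P10 PBS replicate 6, a setting singled out after the data were seen. No slide carries arrays of both ages, and at each age most PBS and IL1B arrays lie on different slides: within a slide, 1 PBS array meets 4 IL1B arrays at P5 and 2 meet 5 at P10. Values with slide as a block rest on these few arrays. At P10, replicate 6 is 1 of the 2 PBS arrays that share a slide with IL1B arrays. In sorted bulk samples, fewer cells of a type and less RNA per cell cannot be told apart.

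The response at P5 was broad, and most of the probes called then had no call at P10. At P5, 2428 probes were higher (4.36% of those tested) and 3323 lower (5.97%) with IL1B, whereas at P10 only 866 were higher (1.56%) and 625 lower (1.12%). Without P10 PBS replicate 6, 2425 (4.36%) and 3337 (5.99%) were called at P5 and 1264 (2.27%) and 1063 (1.91%) at P10. The response differed between the ages on 9378 probes, with 5872 (10.5%) more positive at P10 and 3506 (6.3%) more negative, and without P10 PBS replicate 6 with 6149 (11%) and 4128 (7.41%). These shares over all probes, dim ones included, are the background for the counts of list genes below. Of the 9378 differing probes, 5784 were called at neither age alone. Of all 9378, 62.6% were more positive at P10, a share that became 82.6% with each array divided by its own median, as in the deposited matrix, where the median difference over all probes moved from 0.01 to 0.14. The share of higher probes among those called at P5 was 42.2%, and became 54.4% with the 75th percentile scaling, where the median P5 response over all probes was 0.11, and 53.6% with normexp background correction. At P10 that share was 58.1%, and 72.2% on the matrix values.

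The 2428 probes higher at P5 had a median response of 1.11 at P5 and of 0.29 at P10 (SD 0.06 over the 6 P10 IL1B arrays), and 75.7% kept their sign. For 24.6% of them the P10 response was over 50% of the P5 response. The 3323 probes lower at P5 had medians of -0.92 and -0.07, and 59.0% kept their sign, against 50.8% over all probes. Rises were thus carried over to P10 further than falls were, in these medians and with no test of that contrast. Without P10 PBS replicate 6 the median P10 response of the probes higher at P5 was 0.35.

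**Figure D1:**
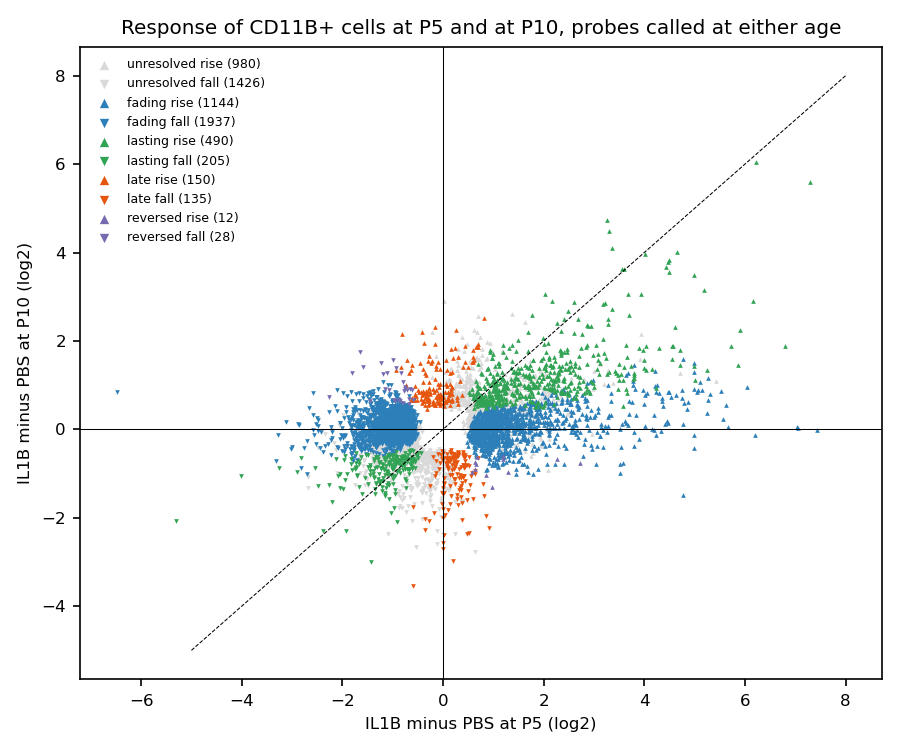
Response to IL1B (mean IL1B minus mean PBS level, log2) at P5 on the x axis and at P10 on the y axis, with a point for each probe called at either age, colored by class. Fading probes, which by definition have no call at P10, lie along the line of no P10 response. Their median P10 response is 0.08 for rises and 0.04 for falls. Lasting rises lie along the diagonal or below it.

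Kinds of response were separated by the calls at both ages together with the test of the difference. Fading responses (called at P5, not called at P10, with a difference in the opposite direction) comprised 1144 rises and 1937 falls. Lasting responses (called in the same direction at both ages) comprised 490 rises and 205 falls. Late responses (called at P10 only, with a difference in that direction) comprised 150 rises and 135 falls, and 28 falls and 12 rises at P5 were reversed at P10. The remaining 980 rises and 1426 falls were called at 1 age with no call on the difference, and are not described as fading or late. Without P10 PBS replicate 6, the classes held 1022 fading rises (994 of them among the 1144), 1938 fading falls (1838 shared), 676 lasting rises (488 shared), 280 late rises (144 shared), 424 late falls (130 shared) and 70 reversed responses. Without P10 PBS replicate 2, 349 probes were lower at P10, with 93 late rises and 70 late falls. Late falls also numbered 79 without P10 PBS replicate 3, 208 without P5 IL1B replicate 3, 253 without P5 PBS replicate 5 and 294 without P10 PBS replicate 5, and the probes lower at P10 numbered 406 without P10 PBS replicate 3 and 1018 without P5 PBS replicate 5. With slide as a block only 9 probes were higher and 7 lower at P10, so that 5 lasting rises, no lasting fall, 3 late rises, 4 late falls and no reversed response were left, beside 725 fading rises and 633 fading falls. No gene named here was called at P10 in that fit. Its P10 responses rest on 2 PBS arrays that share a slide with IL1B arrays, and replicate 6 is 1 of them. The slide block was not run without replicate 6, so the parts of slide and of this array were not separated. Of the fading probes, 575 of the 1144 rises and 594 of the 1937 falls were classed alike with slide as a block.

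**Figure D2:**
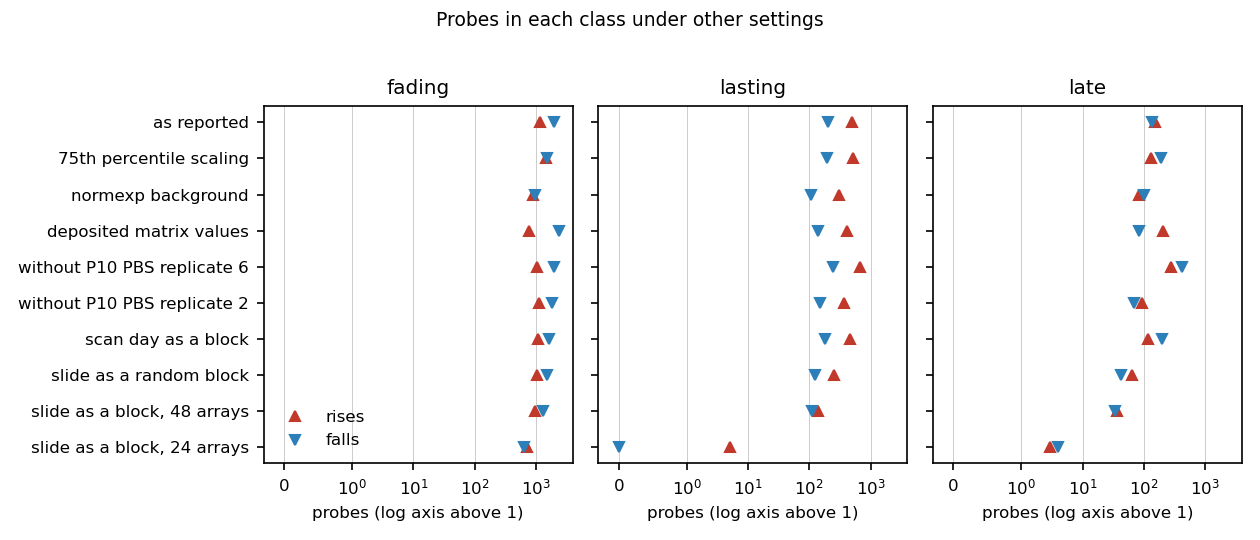
Number of probes in the fading, lasting and late classes as reported and under other settings of the processing, on a log axis. Fading rises and falls number 1144 and 1937 as reported, and 725 and 633 with slide as a block over 24 arrays. The late and lasting classes depend on P10 PBS replicate 6 and on the slide block. Replicate 6 is 1 of the 2 P10 PBS arrays that share a slide with P10 IL1B arrays, and the parts of slide and of this array were not separated.

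Genes of the acute phase reaction and of STAT3 signalling were among the fading rises. Of 20 such genes, 16 rose and 1 fell at P5, 6 rose at P10, and 13 responses were more negative and 1 more positive at P10, with a median P5 response of 1.95, a median P10 response of 0.66 and a median difference of -1.52, against medians of -0.01, 0.00 and 0.01 over all probes. Without P10 PBS replicate 6, 9 of the genes rose and 1 fell at P10, with a median P10 response of 0.74 and a median difference of -1.15. Lrg1, a secreted glycoprotein of the acute phase, had the largest fall in response among the eligible fading rises. Its levels were 6.10, 6.37 and 7.66 on P5 PBS arrays, 11.94, 12.88 and 13.11 on P5 IL1B arrays, 5.45, 5.74 and 7.78 on P10 PBS arrays and 6.44, 6.97 and 7.76 on P10 IL1B arrays. The P5 groups did not overlap, while the P10 groups overlapped through P10 PBS replicate 6, which held the highest value of both groups. The response was 6.04 at P5 (standard error 0.37, adjusted p = 1.2e-10) and 0.97 at P10 (adjusted p = 0.12), with a difference of -5.07 (standard error 0.53, adjusted p = 9.8e-07). Without P10 PBS replicate 6 the P10 response of Lrg1 was 1.31 (adjusted p = 0.0076), so that it counted as lasting, with a difference of -4.73.

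Socs3, which encodes the feedback inhibitor of STAT3 signalling, was at 13.07, 13.22 and 13.52 on P5 PBS arrays and at 14.63, 14.85 and 14.95 on P5 IL1B arrays. At P10 it was at 14.46, 14.69 and 14.77 with PBS and at 14.39, 14.43 and 14.54 with IL1B. The P5 groups were separate, and at P10 the groups overlapped at a PBS level near that of the P5 IL1B arrays. Its response was 1.60 at P5 (adjusted p = 8.5e-13) and -0.21 at P10 (adjusted p = 0.076), and the difference of -1.81 (adjusted p = 1.5e-10) passed with slide as a block as well (-2.01, adjusted p = 1.3e-06). Ch25h, the cholesterol 25-hydroxylase, rose by 3.14 at P5 and had a P10 response of 0.11 (difference -3.02, adjusted p = 2e-08). Steap4, a metalloreductase, rose by 4.34 at P5 and had a P10 response of -0.04, and it was well above background on 7 of the 24 arrays. Stat3 itself rose by 0.70 at P5 and had a P10 response of 0.16. Lcn2, which binds bacterial siderophores, rose at both ages, by 4.99 and 1.44 (adjusted p = 0.033 at P10), with a difference of -3.55, and Saa3 rose by 6.16 and 2.90. Il6st, the signalling receptor gp130 of the IL6 family, fell by 0.96 at P5 and had a P10 response of -0.21.

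All 10 neutrophil and monocyte markers rose at P5, 5 rose at P10, and 9 responses were more negative at P10, with medians of 4.39 at P5 and 0.99 at P10. Their mean level per array was 9.14 to 10.34 with PBS and 13.21 to 13.94 with IL1B at P5, and 9.37 to 11.79 with PBS and 10.57 to 11.43 with IL1B at P10. S100a8, a subunit of the neutrophil protein calprotectin, was at 12.34, 12.92 and 13.75 on P5 PBS arrays and at 16.61, 17.29 and 17.35 on P5 IL1B arrays. At P10 its levels were 12.46, 12.69 and 15.10 with PBS and 13.34, 14.20 and 14.42 with IL1B, where the highest PBS value is that of replicate 6. Its response was 4.22 at P5 (adjusted p = 7.2e-09) and 0.98 at P10 (adjusted p = 0.092), with a difference of -3.24 (adjusted p = 7.9e-05). Retnlg, a resistin-like protein of neutrophils, was at 8.76, 9.52 and 10.45 (P5 PBS), 14.06, 15.02 and 15.19 (P5 IL1B), 9.18, 9.46 and 11.71 (P10 PBS) and 10.31, 10.51 and 10.87 (P10 IL1B). Both genes were separate between the groups at P5 and overlapped at P10. Without P10 PBS replicate 6, the P10 responses of S100a8 (1.39, adjusted p = 0.00038) and Retnlg (1.03, adjusted p = 0.0083) were called, as were 9 of the 10 markers. Ly6g, Ltf, Ngp and Camp, which neutrophils carry on the surface or in granules, rose at both ages by 5.25 and 1.34, 4.70 and 1.46, 4.55 and 1.59, and 3.59 and 1.40. Ccr2, the monocyte chemokine receptor, rose by 0.95 at P5, with a difference of -0.60 that did not pass (adjusted p = 0.06). Several of the acute phase genes, Lrg1, Lcn2 and Hp among them, are also made by neutrophils, and the part of the marker shift in their responses was not tested.

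Of 14 genes known to respond to glucocorticoids, 8 rose at P5, 1 rose and 1 fell at P10, and 9 responses were more negative at P10, with 6 fading rises. Fkbp5, the chaperone that glucocorticoids induce and that restrains their receptor, was at 11.47, 11.75 and 11.89 on P5 PBS arrays and at 13.53, 13.89 and 14.03 on P5 IL1B arrays. At P10 it was at 11.68, 11.82 and 11.93 with PBS and at 11.56, 11.73 and 11.81 with IL1B. The P5 groups were about 2 log2 units apart, and the P10 groups overlapped. The response was 2.10 at P5 (standard error 0.09, adjusted p = 2.5e-13) and -0.10 at P10 (adjusted p = 0.58), and the difference was -2.20 (standard error 0.12, adjusted p = 1.5e-10) and -2.19 with slide as a block (adjusted p = 7.2e-08). Zbtb16, a zinc finger repressor, was at 6.64, 6.87 and 7.29 (P5 PBS), 9.28, 9.36 and 9.73 (P5 IL1B), 6.20, 6.38 and 6.91 (P10 PBS) and 6.34, 6.55 and 6.88 (P10 IL1B). Its difference was -2.37 (adjusted p = 2e-08). Hif3a, Tgm2 and Tsc22d3, which encodes the glucocorticoid-induced leucine zipper, rose by 2.22, 2.01 and 0.83 at P5 and had P10 responses of -0.21, 0.10 and -0.19. Hsd11b1, which regenerates active corticosterone inside cells, rose at both ages, by 2.58 and 0.72, with a difference of -1.86 (adjusted p = 0.00011). Sgk1 was the exception in direction: it fell at P10 by 0.66 (adjusted p = 0.0025), and its difference was not called. With slide as a block, 8 of the 14 differences were still more negative.

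Of 18 genes of the IL1 pathway, 9 rose and 1 fell at P5, 4 rose at P10, 4 responses were more negative and 2 more positive at P10. The decoy receptor Il1r2 was at 7.72, 8.15 and 8.81 (P5 PBS), 11.66, 12.63 and 12.72 (P5 IL1B), 6.15, 6.80 and 7.90 (P10 PBS) and 7.64, 7.83 and 8.06 (P10 IL1B). It rose by 4.23 at P5 and by 0.93 at P10 (adjusted p = 0.015), with a difference of -3.30 (adjusted p = 5.6e-07). The co-receptor Il1rap and the adaptor Myd88 rose by 1.38 and 0.67 at P5 and had P10 responses of 0.10 and 0.09, with differences of -1.29 and -0.58 that passed. The ligand Il1b was at 13.90, 13.98 and 14.11 (P5 PBS), 14.59, 14.66 and 14.92 (P5 IL1B), 11.90, 12.30 and 13.59 (P10 PBS) and 13.18, 13.36 and 13.79 (P10 IL1B). Its groups were separate at P5, and at P10 they overlapped through PBS replicate 6. It rose by 0.74 at P5 and by 0.94 at P10 (adjusted p = 0.0035), and the other ligand, Il1a, rose by 0.88 and 0.66. The differences of both ligands, 0.20 (standard error 0.27, adjusted p = 0.66) and -0.22, did not pass. Irak3, the inhibitory member of the kinase family, rose by 1.79 and 0.95 (difference -0.84, adjusted p = 0.014). Il33 fell by 1.49 at P5 and had a P10 response of 0.43, with a difference of 1.92. The receptor Il1r1 and the antagonist Il1rn rose by 0.72 and 2.15 at P5, had P10 responses of 0.43 and 1.01 that were not called, and differences of -0.29 and -1.14 that did not pass. In the fit blocked by slide the differences of Il1rap (-1.21, adjusted p = 0.085), Irak3 (-1.24, adjusted p = 0.089) and Il33 (1.37, adjusted p = 0.49) did not pass, nor did the P5 responses of Il1rap, Il33, Il1r1 and both ligands.

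Of 12 Toll-like receptor genes and partners, 4 rose at P5 and are fading rises, 1 rose at P10 (2 without P10 PBS replicate 6) and 5 responses were more negative at P10. Tlr7, the endosomal sensor of single-stranded RNA, was at 12.23, 12.62 and 12.70 (P5 PBS), 13.11, 13.32 and 13.49 (P5 IL1B), 12.62, 12.75 and 12.96 (P10 PBS) and 12.48, 12.69 and 12.83 (P10 IL1B). Its response was 0.75 at P5 and -0.09 at P10, and the difference of -0.84 passed (adjusted p = 1.8e-05). Tlr6, Tlr13 and Cd14 had differences of -0.78, -0.65 and -0.51, of which that of Cd14 did not pass with slide as a block (-0.68, adjusted p = 0.11). Without P10 PBS replicate 6 the P10 response of Cd14 was 0.58 (adjusted p = 0.00079), so that it counted as lasting. Nos2, the inducible nitric oxide synthase, was at 7.24, 7.63 and 7.80 (P5 PBS), 10.18, 10.73 and 10.90 (P5 IL1B), 6.88, 7.24 and 7.48 (P10 PBS) and 6.28, 6.92 and 7.12 (P10 IL1B). It rose by 3.07 at P5 (adjusted p = 1.2e-12), had a P10 response of -0.38 (adjusted p = 0.098) and a difference of -3.45 (adjusted p = 2.3e-10), which was -3.03 with slide as a block (adjusted p = 9e-07). Ccl12, a monocyte-attracting chemokine, was at 14.08, 14.23 and 14.30 (P5 PBS), 16.05, 16.40 and 16.54 (P5 IL1B), 13.63, 13.88 and 14.56 (P10 PBS) and 14.21, 14.33 and 14.68 (P10 IL1B). Its response was 2.12 at P5 and 0.44 at P10, under the fold threshold, with a difference of -1.69. Ackr1, the chemokine receptor of venules and erythroid cells, rose by 4.01 at P5 and had a P10 response of 0.07. Of the inhibitors of NF-kappaB, Tnip1 and the RNase Zc3h12a rose by 0.90 and 1.80 at P5 and had P10 responses of 0.22 and 0.07, whereas Nfkbia, Nfkbiz and Tnfaip3 had no called response at either age and differences of 0.55, 0.74 and 0.50 that passed. The difference of Zc3h12a was -0.70 (adjusted p = 0.76) with slide as a block, and those of Nfkbia, Nfkbiz and Tnfaip3 did not pass then (adjusted p = 0.11, 0.42 and 0.44).

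**Figure D3:**
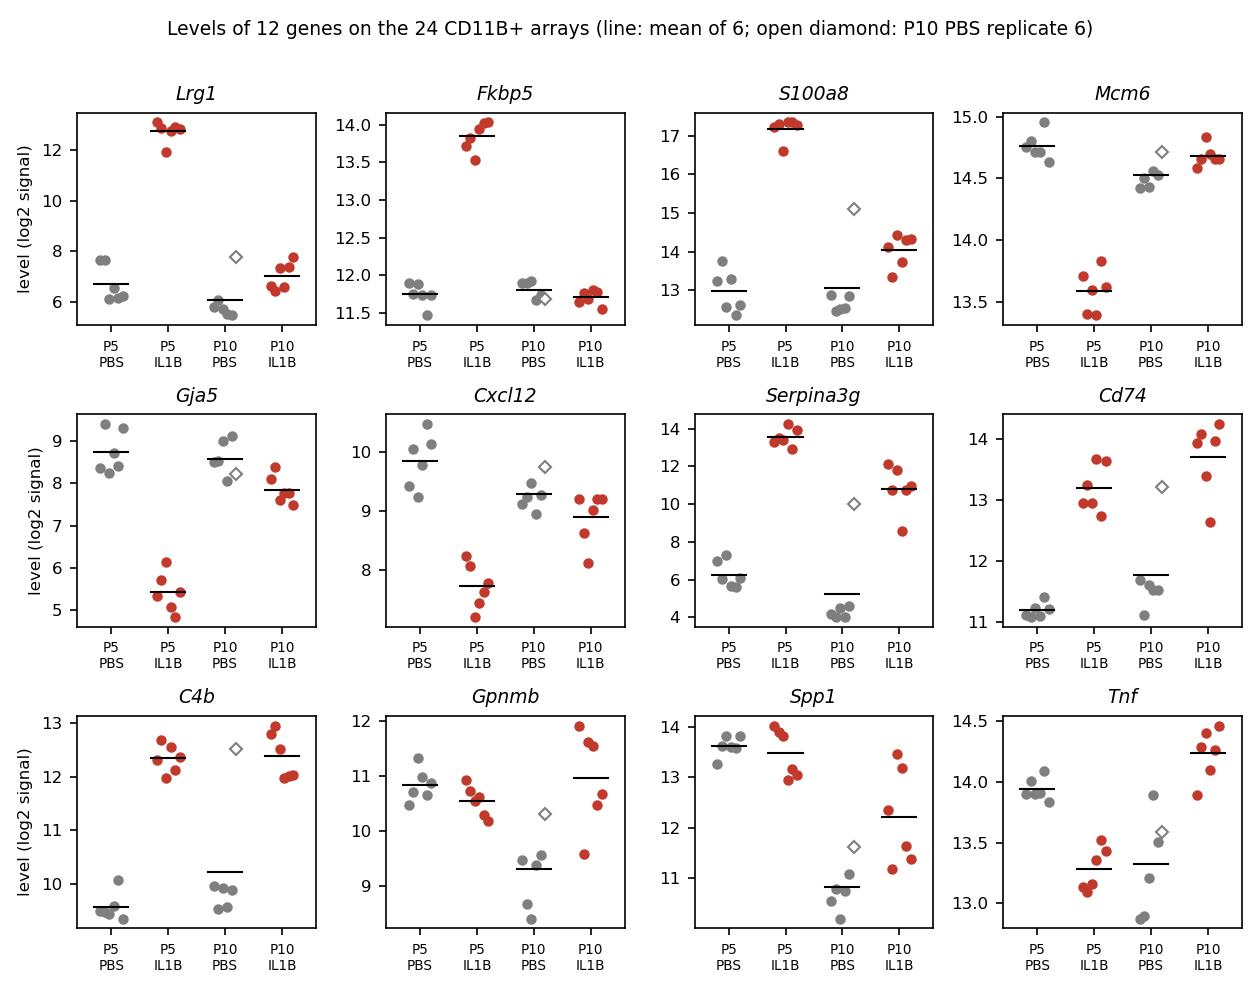
Log2 level of 12 genes on each of the 24 CD11B+ arrays, by group, with the group mean as a line and P10 PBS replicate 6 as an open diamond. Lrg1, Fkbp5 and S100a8 are high at P5 with IL1B, with medians of 12.88, 13.89 and 17.29, and Mcm6, Gja5 and Cxcl12 are low there. Serpina3g, Cd74 and C4b are high with IL1B at both ages. Gpnmb and Spp1 have a higher P10 mean with IL1B, with overlapping groups. Tnf is lower with IL1B at P5 and higher at P10.

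Proliferation genes were among the fading falls. Of 31 genes of DNA replication and mitosis, 26 fell at P5, none rose or fell at P10, and 28 responses were more positive at P10, with a median P5 response of -0.81, a median P10 response of 0.12 and a median difference of 0.92. Mcm6, a subunit of the replicative helicase, was at 14.63, 14.74 and 14.95 (P5 PBS), 13.39, 13.61 and 13.83 (P5 IL1B), 14.42, 14.52 and 14.71 (P10 PBS) and 14.58, 14.66 and 14.83 (P10 IL1B). The P5 groups were separate with IL1B below PBS, and the P10 groups overlapped. It fell by 1.17 at P5 (standard error 0.07, adjusted p = 1.2e-10), had a P10 response of 0.16 (adjusted p = 0.22) and a difference of 1.33 (adjusted p = 2.5e-08). Mki67, the nuclear antigen of cycling cells, was at 14.21, 14.25 and 14.31 (P5 PBS), 13.03, 13.52 and 13.78 (P5 IL1B), 14.08, 14.27 and 14.40 (P10 PBS) and 14.18, 14.34 and 14.44 (P10 IL1B). Its P5 groups were separate, and its difference was 0.90 (adjusted p = 0.00011). Top2a, the mitotic topoisomerase, and Ccnb2, a mitotic cyclin, fell by 0.77 and 0.70 and had differences of 0.99 and 0.85. The genes of the list that were called neither at P5 nor for the difference were Cdk1 and Tyms, with differences of -0.16 and 0.19. E2f1, which turns on S-phase genes, was at 11.58, 11.66 and 11.83 (P5 PBS), 10.35, 10.69 and 10.80 (P5 IL1B), 11.04, 11.13 and 11.42 (P10 PBS) and 11.35, 11.53 and 11.71 (P10 IL1B), and its difference was 1.38 (adjusted p = 6.7e-08). The inhibitor Cdkn2c, which is itself bound to the cell cycle, fell by 0.95 at P5, and Ccne1 by 0.74. With slide as a block 18 of the 31 genes fell at P5 and 9 differences passed, those of Mcm6 (1.14, adjusted p = 0.00075) and E2f1 among them and those of Mki67 (0.84, adjusted p = 0.093), Ccnb2 (0.90, adjusted p = 0.051) and Top2a (0.82, adjusted p = 0.15) not, and the falls of Top2a and Ccne1 at P5 did not pass either.

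Promoters of mitotic genes often hold the cell cycle homology region (CHR, letters TTTGAA), which the DREAM complex reads. Within 250 bases before and 50 after the start of transcription (RefSeq, GRCm38.p6), 13 of the 26 genes of the list with a promoter in the table held it on either strand (50%), against 20.2% of all 27025 genes of the table and 16.5% of the fading falls as a whole. The short motif can lie within other motifs. A match is a description of letters and not of binding. The following 3 promoters are examples that hold a CHR, from genes that fell at P5 and had no call at P10. Promoters of the list without the motif are not shown. The 3 are given as the 250 bases before the start, 5′ to 3′ on the coding strand, with the CHR in capitals. They lie at chr7:135716380-135716629 (minus strand, Mki67), chr11:99024190-99024439 (minus strand, Top2a) and chr4:118437344-118437593 (minus strand, Cdc20, the activator of the anaphase-promoting complex).
Mki67: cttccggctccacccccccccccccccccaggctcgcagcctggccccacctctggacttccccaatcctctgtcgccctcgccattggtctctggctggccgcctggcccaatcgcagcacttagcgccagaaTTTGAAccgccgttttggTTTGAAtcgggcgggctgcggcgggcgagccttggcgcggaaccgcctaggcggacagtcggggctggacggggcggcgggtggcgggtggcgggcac
Top2a: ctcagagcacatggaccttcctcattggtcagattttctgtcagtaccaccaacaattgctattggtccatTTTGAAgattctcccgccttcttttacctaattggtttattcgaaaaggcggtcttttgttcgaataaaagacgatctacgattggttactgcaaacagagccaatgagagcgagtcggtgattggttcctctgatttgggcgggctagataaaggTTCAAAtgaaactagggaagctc
Cdc20: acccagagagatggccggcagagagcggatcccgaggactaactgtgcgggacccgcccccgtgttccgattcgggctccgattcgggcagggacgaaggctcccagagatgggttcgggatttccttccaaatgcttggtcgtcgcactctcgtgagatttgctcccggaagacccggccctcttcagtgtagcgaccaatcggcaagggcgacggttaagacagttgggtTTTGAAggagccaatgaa
The difference of Cdc20 was 0.90, after a fall of 0.84 at P5, and 0.75 with slide as a block (adjusted p = 0.12).

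Endothelial markers fell at P5 and had differences of the same sort. Of 12 markers, 10 fell at P5, none was called at P10, and 9 responses were more positive at P10, with a median difference of 1.13. Their mean level per array was 9.43 to 10.12 with PBS and 8.12 to 8.72 with IL1B at P5, and 8.91 to 9.35 and 8.52 to 8.93 at P10. Gja5, the connexin 40 of arterial endothelium, was at 8.24, 8.57 and 9.41 (P5 PBS), 4.84, 5.39 and 6.14 (P5 IL1B), 8.06, 8.51 and 9.11 (P10 PBS) and 7.49, 7.78 and 8.38 (P10 IL1B). It fell by 3.31 at P5 (standard error 0.24, adjusted p = 1.2e-09), had a P10 response of -0.72 (adjusted p = 0.073) and a difference of 2.60 (standard error 0.34, adjusted p = 1.5e-05), which was 3.29 with slide as a block (adjusted p = 0.0033). Sox18, a transcription factor of vessel formation, and Cldn5, the tight junction claudin of brain endothelium, fell by 2.75 and 1.59 and had differences of 2.34 and 1.41. Pecam1 and Kdr, which mark the same cells, had P5 responses of -0.26 and -0.08 and differences of -0.03 and -0.14, with no call. The part of vessel cells in these responses was not tested. Gpr182, a chemokine-scavenging receptor of endothelium that is no member of the list, fell by 2.53 and had a difference of 2.66.

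Wnt receptors and targets fell at P5 in part. Of 20 such genes, 7 fell at P5, 1 fell at P10 (2 without P10 PBS replicate 6), and 8 responses were more positive at P10. Lef1, the nuclear partner of beta-catenin and a target of the pathway in brain vessels, was at 8.55, 9.15 and 9.60 (P5 PBS), 6.42, 6.98 and 8.06 (P5 IL1B), 8.03, 8.15 and 8.55 (P10 PBS) and 7.88, 8.06 and 8.22 (P10 IL1B). It fell by 1.94 at P5 and had a difference of 1.80 (adjusted p = 0.00017), and a second, dimmer probe gave 2.70. Nkd1, a feedback inhibitor of the pathway, fell by 1.77 at P5 and had a difference of 1.43, and the Norrin receptor Fzd4 fell at both ages, by 1.31 and 0.63. Cxcl12, the chemokine of vessels and meninges that guides CXCR4+ cells, was at 9.23, 9.91 and 10.47 (P5 PBS), 7.21, 7.71 and 8.24 (P5 IL1B), 8.94, 9.25 and 9.74 (P10 PBS) and 8.12, 9.11 and 9.20 (P10 IL1B). The P5 groups of Cxcl12 were separate, and the difference of 1.72 passed (adjusted p = 0.00051), but not with slide as a block (1.73, adjusted p = 0.074).

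Among enzymes of cholesterol synthesis and its export, 5 of 17 genes fell and 1 rose at P5, none was called at P10, and 10 responses were more positive and 1 more negative at P10. Sqle, the squalene epoxidase, was at 11.34, 11.45 and 12.28 (P5 PBS), 10.19, 10.57 and 10.72 (P5 IL1B), 11.72, 11.94 and 12.08 (P10 PBS) and 11.73, 11.79 and 12.03 (P10 IL1B). Its groups were separate at P5, where P5 PBS replicate 5 held the highest value, and the difference was 0.94 (adjusted p = 0.00061). The later enzyme Cyp51 fell by 0.90 and had a difference of 1.10, whereas the exporter Abcg1 rose by 0.69 and had a difference of -0.54. Of 20 homeostatic microglia genes, 5 fell and 1 rose at P5, none was called at P10, and 5 responses were more positive and 3 more negative at P10. Over all probes, dim ones included, 5.97% fell and 4.36% rose at P5, and 10.5% were more positive and 6.3% more negative at P10. Fcrls, an Fc receptor-like protein of microglia, was at 15.45, 15.54 and 15.88 (P5 PBS), 14.43, 14.81 and 15.09 (P5 IL1B), 15.78, 16.12 and 16.29 (P10 PBS) and 16.06, 16.11 and 16.49 (P10 IL1B), with a difference of 0.94 (adjusted p = 0.00067) that did not pass with slide as a block (0.65, adjusted p = 0.34), nor did its fall at P5. P2ry12, the purinergic receptor that steers microglial processes, and Sall1, a transcription factor of microglial identity, fell by 0.73 and 0.60 at P5, had P10 responses of -0.48 (adjusted p = 0.0074 and 0.015), under the fold threshold, and differences of 0.25 and 0.11 that did not pass. Tmem119 had responses of -0.26 and -0.22 and Cx3cr1 of -0.42 and -0.18, under the fold threshold at both ages.

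**Figure D4:**
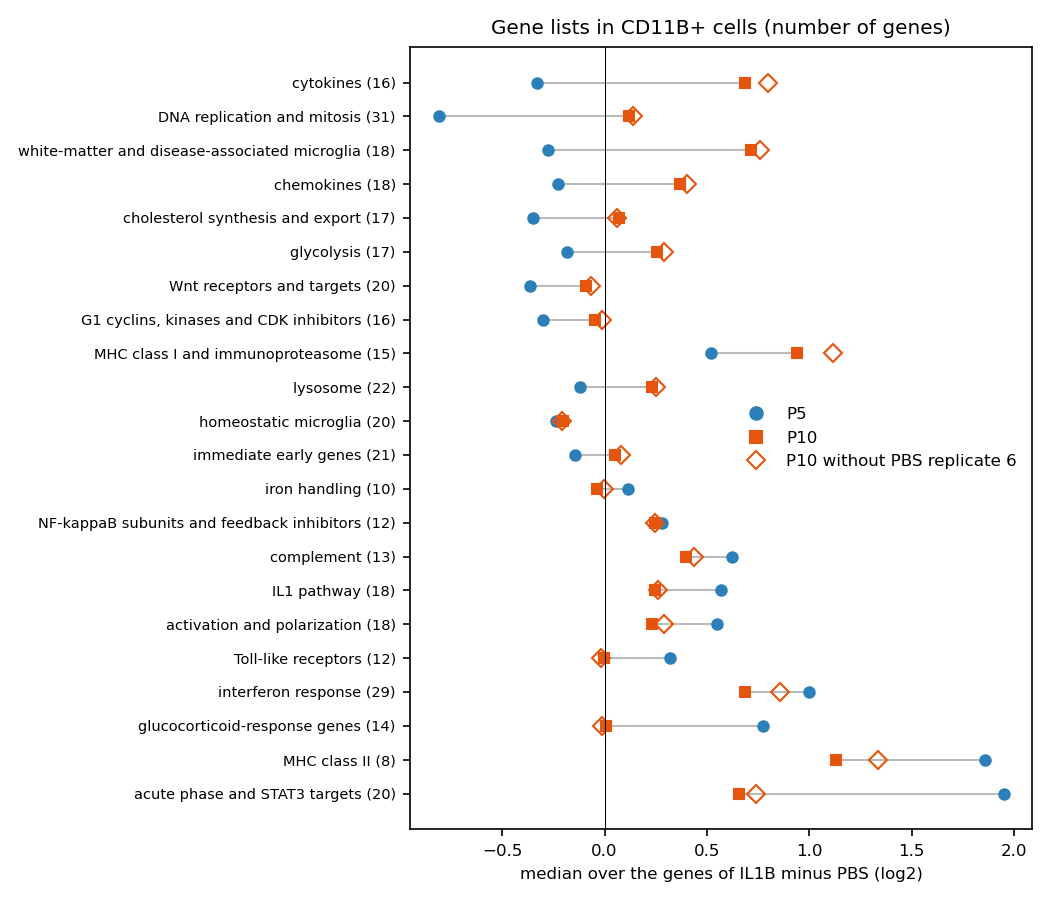
Median response of each pathway list (log2) at P5, at P10 and at P10 without P10 PBS replicate 6. The acute phase list moves from 1.95 to 0.66, the list of DNA replication and mitosis from -0.81 to 0.12, and the white-matter and disease-associated list from -0.27 to 0.72, with 0.76 without that array.

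Genes of antigen presentation, complement and the interferon response were among the lasting rises. Of the 490 lasting rises, 158 had a difference that passed, 157 of them smaller at P10 and 1 larger. For the others the difference did not pass, which does not show that the responses were equal. On the lasting rises the median deviation of P10 PBS replicate 6 from its group was 1.08, against -0.28 to 0.05 on the other P10 PBS arrays and 0.85 to 1.44 on the P10 IL1B arrays. These probes were chosen with the P10 arrays, so a gap between the other PBS arrays and the IL1B arrays is built in. Serpina3g, an intracellular inhibitor of cathepsins in activated leukocytes, had the largest mean response of the eligible lasting rises. Its levels were 5.59, 6.05 and 7.29 on P5 PBS arrays, 12.91, 13.46 and 14.25 on P5 IL1B arrays, 4.01, 4.34 and 10.02 on P10 PBS arrays and 8.58, 10.86 and 12.11 on P10 IL1B arrays. The value of 10.02 was that of P10 PBS replicate 6, without which the P10 groups would not overlap. The response was 7.29 at P5 (adjusted p = 2.7e-07) and 5.60 at P10 (standard error 0.78, adjusted p = 0.00027), or 6.56 at P10 without that array (adjusted p = 1.3e-08), and the difference of -1.68 (standard error 1.11, adjusted p = 0.36) did not pass. When slide was a block, the P10 response was 3.49 and not called (adjusted p = 0.27). Its neighbour Serpina3f rose by 5.90 and 2.26, with a difference of -3.64 (adjusted p = 3.6e-05). The Serpina3 genes are close copies of each other, as are the Tgtp, H2, C4 and Hbb genes named below, and a probe may read more than 1 of them.

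Ccl8, a chemokine for monocytes and T cells, was at 6.16, 7.13 and 7.48 (P5 PBS), 10.30, 11.60 and 12.19 (P5 IL1B), 6.48, 7.43 and 11.48 (P10 PBS) and 10.14, 11.39 and 13.27 (P10 IL1B). It rose by 4.43 at P5 and by 3.67 at P10 (adjusted p = 0.0011), or 4.39 without P10 PBS replicate 6, which held the value of 11.48. Ccl5, a chemokine of T cells and macrophages, rose by 2.02 and 3.05, and without P10 PBS replicate 6 its response was larger at P10 by 1.65 (adjusted p = 8.7e-05). Gzma, the granzyme A of cytotoxic lymphocytes, behaved alike, with rises of 3.30 and 4.50 and a difference of 1.20 that did not pass (2.15 without that array, adjusted p = 0.00011), and the 6 lymphocyte markers averaged 5.59 to 6.43 and 6.15 to 6.83 at P5 and 5.17 to 5.98 and 5.58 to 6.49 at P10 with PBS and IL1B. The P5 rises of Ccl5 and Gzma did not pass with slide as a block (adjusted p = 0.18 and 0.26). Cxcl9, a chemokine that interferon-gamma induces, was at 4.99, 5.28 and 6.57 (P5 PBS), 7.79, 8.83 and 9.35 (P5 IL1B), 5.24, 5.49 and 8.25 (P10 PBS) and 7.35, 8.63 and 10.60 (P10 IL1B), and rose by 3.22 and 2.86. The difference of Cxcl9 was -0.36 (standard error 0.71).

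Of 29 interferon-response genes, 20 rose at P5, 12 rose at P10 (15 without P10 PBS replicate 6), and 11 responses were more negative at P10, with medians of 1.00 at P5, 0.68 at P10 and -0.57 for the difference. Tgtp2, an interferon-induced GTPase, was at 6.64, 7.22 and 8.24 (P5 PBS), 11.20, 11.81 and 12.45 (P5 IL1B), 6.11, 6.86 and 11.08 (P10 PBS) and 9.58, 10.86 and 12.42 (P10 IL1B). It rose by 4.48 at P5 and by 3.57 at P10 (adjusted p = 0.0016), or by 4.30 without P10 PBS replicate 6. Gbp2, a guanylate-binding protein, rose by 3.90 and 1.83 with a difference of -2.07 (adjusted p = 0.0036), which did not pass with slide as a block (-2.64, adjusted p = 0.093). Irf7, the master regulator of type I interferon, and Isg15, a ubiquitin-like protein, rose by 1.45 and 1.30 and by 1.00 and 0.87, but neither P5 rise passed with slide as a block (adjusted p = 0.24 and 0.20). Ifnb1 itself fell by 1.46 at P5 and had a P10 response of 0.57 (adjusted p = 0.11) and a difference of 2.03, against a P5 response of -0.84 (adjusted p = 0.26) and a difference of 1.27 (adjusted p = 0.21) with slide as a block.

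Promoters were searched on both strands for the kappaB motif, the interferon-stimulated response element (ISRE, letters GAAANNGAA), the interferon-gamma-activated site (GAS, letters TTCNNNGAA) and the AP-1 site (letters TGANTCA). The ISRE and the GAS can overlap by their outer letters. Of the 251 genes with a lasting rise and a promoter in the table (of 346), 21.5% held an ISRE, 15.5% a kappaB motif, 12.4% a GAS and 13.9% an AP-1 site, against 9.76%, 9.55%, 9.55% and 8.97% of all genes of the table. Of the 534 genes with a fading rise and a promoter (of 718), 12.7% held an ISRE, 12.2% a kappaB motif and 13.3% a GAS. The kappaB motif was as frequent in lasting falls (16.5%) and late rises (15%) as in lasting rises. Over the 17206 genes with a probe on the array and a promoter, the shares were 9.24% (ISRE), 10.8% (kappaB), 9.1% (GAS) and 8.24% (AP-1). In the interferon list 16 of 24 genes with a promoter held an ISRE (66.7%) and 9 a GAS (37.5%). The following promoters are examples that hold a match, from genes that rose at both ages. Promoters of lasting rises without a match are not shown. KappaB, ISRE and GAS matches are in capitals, over the same 250 bases at chr12:104235897-104236146 (plus strand, Serpina3g), chr11:49064213-49064462 (minus strand, Tgtp2) and chr3:142620413-142620662 (plus strand, Gbp2).
Serpina3g: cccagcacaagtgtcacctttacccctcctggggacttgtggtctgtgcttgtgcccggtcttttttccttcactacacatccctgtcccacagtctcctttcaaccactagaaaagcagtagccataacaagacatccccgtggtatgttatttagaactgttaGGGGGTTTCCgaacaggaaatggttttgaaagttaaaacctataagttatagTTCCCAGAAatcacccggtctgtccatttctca
Tgtp2: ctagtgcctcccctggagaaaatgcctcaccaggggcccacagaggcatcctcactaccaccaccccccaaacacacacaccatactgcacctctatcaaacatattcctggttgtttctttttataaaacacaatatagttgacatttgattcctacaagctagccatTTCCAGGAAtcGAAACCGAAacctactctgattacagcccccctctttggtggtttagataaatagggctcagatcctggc
Gbp2: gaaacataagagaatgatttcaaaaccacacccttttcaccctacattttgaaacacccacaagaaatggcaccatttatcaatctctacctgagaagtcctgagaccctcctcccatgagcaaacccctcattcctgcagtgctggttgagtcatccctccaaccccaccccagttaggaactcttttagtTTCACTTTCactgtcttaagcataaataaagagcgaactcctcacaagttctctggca
The capitals are a kappaB motif and then a GAS in Serpina3g, a GAS and then an ISRE in Tgtp2, and an ISRE in Gbp2.

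Class II antigen presentation stayed high. Of 8 genes, 7 rose at P5 and 5 at P10, and 2 responses, those of the peptide editors H2-DMb1 and H2-DMb2, were more negative at P10, that of H2-DMb2 not with slide as a block (-1.65, adjusted p = 0.24). Cd74, the invariant chain, was at 11.08, 11.17 and 11.42 (P5 PBS), 12.74, 13.11 and 13.68 (P5 IL1B), 11.11, 11.56 and 13.23 (P10 PBS) and 12.65, 13.96 and 14.25 (P10 IL1B). It rose by 2.01 at P5 (adjusted p = 1.3e-05) and by 1.94 at P10 (adjusted p = 0.0004), with a difference of -0.07 (standard error 0.41). H2-Eb1, a class II beta chain, was at 10.34, 11.01 and 11.22 (P5 PBS), 12.80, 13.59 and 14.06 (P5 IL1B), 10.91, 11.85 and 13.82 (P10 PBS) and 13.32, 14.43 and 14.64 (P10 IL1B), and rose by 2.60 and 2.19. The highest P10 PBS value of both was that of replicate 6, and without it the P10 responses were 2.23 and 2.56. In the fit blocked by slide, neither passed at P10 (1.23, adjusted p = 0.29 for Cd74, and 1.40, adjusted p = 0.36 for H2-Eb1).

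In class I presentation the number of rises was larger at P10 than at P5. Of 15 genes, 5 rose at P5 and 9 at P10, or 6 and 11 without P10 PBS replicate 6. Of their differences 1 passed, or 6 without that array, all more positive at P10. Nlrc5, the transactivator of class I genes, was at 6.10, 6.52 and 7.26 (P5 PBS), 9.77, 10.21 and 11.15 (P5 IL1B), 5.68, 6.15 and 9.59 (P10 PBS) and 8.95, 9.77 and 10.99 (P10 IL1B). It rose by 3.68 and 3.07. H2-T23, the nonclassical molecule Qa-1, was at 13.56, 13.78 and 13.96 (P5 PBS), 14.21, 14.26 and 14.59 (P5 IL1B), 13.55, 13.72 and 15.33 (P10 PBS) and 14.90, 15.60 and 15.87 (P10 IL1B). Its P5 groups were separate although the P5 response of 0.60 was not called (adjusted p = 0.054), and it rose by 1.53 at P10 (adjusted p = 0.00037) with a difference of 0.93 (adjusted p = 0.049), or 1.21 without P10 PBS replicate 6 (adjusted p = 7.4e-05) and 0.28 with slide as a block (adjusted p = 0.94). The classical genes H2-K1 and H2-D1 rose at P10 by 0.94 and 1.12, and their differences of 0.72 and 0.67 passed only without that array (0.90 for both, adjusted p = 0.0049 and 0.004). The peptide transporter Tap1 and the immunoproteasome subunit Psmb9 rose by 1.39 and 1.29 and by 1.05 and 1.06.

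Of 13 complement genes, 6 rose at P5, 6 rose at P10 and 3 responses were more negative at P10, with 4 lasting and 2 fading rises. C4b was at 9.36, 9.48 and 10.08 (P5 PBS), 11.98, 12.34 and 12.69 (P5 IL1B), 9.54, 9.90 and 12.50 (P10 PBS) and 11.98, 12.27 and 12.95 (P10 IL1B). It rose by 2.76 and 2.15 (adjusted p = 0.00084 at P10), or by 2.60 at P10 without replicate 6, which held the PBS value of 12.50. C3 and the factor B gene Cfb rose by 2.61 and 1.51 and by 2.35 and 1.68. C5ar1, the receptor for C5a, rose by 1.74 at P5 and had a P10 response of 0.38 and a difference of -1.36 (adjusted p = 2.6e-05), and C1qa had responses of 0.08 and 0.17. Acod1, which makes itaconate, rose by 4.61 and 2.32 with a difference of -2.29. Axl, a receptor for apoptotic cells, was at 10.40, 10.59 and 10.84 (P5 PBS), 12.74, 12.91 and 13.26 (P5 IL1B), 9.14, 9.49 and 10.68 (P10 PBS) and 10.71, 10.99 and 11.23 (P10 IL1B), so that the groups were separate at both ages, with rises of 2.33 and 1.37 and a difference of -0.96 (adjusted p = 0.0096). The cytokine Osm, which signals through gp130, rose by 0.76 and 0.78, also with separate groups at both ages.

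Late and reversed responses included genes that are known from microglia of developing white matter and of disease. Of 18 such genes, 3 rose and 3 fell at P5, 10 rose and none fell at P10, and 13 responses were more positive and 2 more negative at P10, with medians of -0.27 at P5, 0.72 at P10 and 0.80 for the difference (0.86 without P10 PBS replicate 6). Gpnmb, a lysosomal membrane glycoprotein, was at 10.47, 10.80 and 11.34 (P5 PBS), 10.18, 10.58 and 10.94 (P5 IL1B), 8.41, 9.43 and 10.31 (P10 PBS) and 9.58, 11.11 and 11.92 (P10 IL1B). Its groups overlapped at both ages. The response was -0.29 at P5 (adjusted p = 0.61) and 1.67 at P10 (standard error 0.33, adjusted p = 0.0034), with a difference of 1.95 (standard error 0.47, adjusted p = 0.0054). Spp1, the secreted protein osteopontin, was at 13.26, 13.61 and 13.82 (P5 PBS), 12.94, 13.49 and 14.02 (P5 IL1B), 10.20, 10.77 and 11.63 (P10 PBS) and 11.19, 12.001 and 13.46 (P10 IL1B). It rose by 1.37 at P10 (adjusted p = 0.013) and had a difference of 1.502 (adjusted p = 0.031). For both genes the P10 PBS median lay below the P5 PBS median and the P10 IL1B median lay above the P10 PBS median, a comparison between ages that slides confound. With slide as a block neither difference passed (1.51, adjusted p = 0.43 for Gpnmb, and 1.55, adjusted p = 0.36 for Spp1).

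Igf1, a growth factor for oligodendrocytes, was at 11.72, 11.96 and 12.07 (P5 PBS), 11.33, 11.49 and 11.63 (P5 IL1B), 9.78, 10.26 and 10.93 (P10 PBS) and 10.60, 11.08 and 11.68 (P10 IL1B). Its P5 groups were separate, with a response of -0.44 that was not called (adjusted p = 0.084), and it rose by 0.85 at P10 with a difference of 1.29 (adjusted p = 0.001). Csf1, a growth factor for microglia, was at 14.00, 14.09 and 14.20 (P5 PBS), 13.39, 13.55 and 13.66 (P5 IL1B), 12.57, 12.96 and 13.21 (P10 PBS) and 13.36, 13.74 and 14.10 (P10 IL1B), with separate groups at both ages. Its response was -0.56 at P5 (adjusted p = 0.00031, under the fold threshold) and 0.79 at P10 (adjusted p = 0.00022). The difference of 1.35 (standard error 0.15, adjusted p = 2e-06) was 1.41 without P10 PBS replicate 6 and 1.26 with slide as a block (adjusted p = 0.009), and another probe of the gene gave 1.70 with both responses called. Itgax, the integrin CD11c, was at 12.18, 12.56 and 12.87 (P5 PBS), 11.49, 11.73 and 11.94 (P5 IL1B), 9.98, 10.16 and 11.20 (P10 PBS) and 10.87, 11.55 and 12.37 (P10 IL1B). It fell by 0.83 at P5 (adjusted p = 0.014) and rose by 1.28 at P10 (adjusted p = 0.0023), with a difference of 2.11. Fabp5, a lipid chaperone, and Clec7a, the receptor dectin-1, rose at P10 by 0.85 and 1.61, Clec7a also at P5 by 0.98, and Lpl, a lipase, fell by 1.18 at P5 and had a P10 response of 0.21. When slide was a block, 3 of the 18 differences were more positive and 2 more negative, and no gene of the list passed at P10. The differences of Igf1 (1.13, adjusted p = 0.17) and Itgax (1.69, adjusted p = 0.13) did not pass then, nor did the P5 responses of Itgax and Clec7a.

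Secreted mediators went both ways. Of 16 cytokines and growth factors, 4 rose and 5 fell at P5, 7 rose and none fell at P10, and 8 responses were more positive and 1 more negative at P10. Without P10 PBS replicate 6, 8 rose at P10. Tnf was at 13.83, 13.90 and 14.09 (P5 PBS), 13.10, 13.25 and 13.52 (P5 IL1B), 12.87, 13.36 and 13.89 (P10 PBS) and 13.89, 14.27 and 14.46 (P10 IL1B). Its groups were separate at both ages, in opposite directions, but at P10 they nearly touched. The highest P10 PBS array was at 13.8882 and the lowest P10 IL1B array at 13.8899. It fell by 0.66 at P5 (adjusted p = 0.0011) and rose by 0.90 at P10 (standard error 0.14, adjusted p = 0.00051), with a difference of 1.56 (standard error 0.20, adjusted p = 1e-05) that was 1.12 with slide as a block (adjusted p = 0.074). Il10, the cytokine that restrains macrophages, was at 8.21, 8.61 and 8.78 (P5 PBS), 7.002, 7.44 and 8.02 (P5 IL1B), 5.80, 6.31 and 7.07 (P10 PBS) and 7.01, 7.23 and 7.73 (P10 IL1B). It fell by 1.07 at P5, rose by 0.89 at P10 (adjusted p = 0.0045) and had a difference of 1.97 (adjusted p = 1.6e-05). Blocked by slide, the P5 response of Il10 was -0.58 (adjusted p = 0.25) and its difference 1.05 (adjusted p = 0.11), and the P5 response of Tnf was -0.48 (adjusted p = 0.36). Of the chemokines, Cxcl1 fell by 0.69 at P5 and had a difference of 1.07, Ccl2 and Ccl7 had differences of 0.49 and 0.44 with no call at either age, and Cxcl10 had responses of 0.04 and 0.25. The differences of Cxcl1, Ccl2 and Ccl7 did not pass with slide as a block (adjusted p = 0.27, 0.67 and 0.58).

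Genes of glycolysis and of the lysosome had median responses of -0.19 and -0.12 at P5 and of 0.26 and 0.23 at P10. None was called lower at either age, 3 glycolysis genes and 1 lysosome gene rose at P5, and 3 and 1 rose at P10. Without P10 PBS replicate 6, 4 and 1 rose at P10. Of 17 glycolysis genes, 9 differences were more positive and 1 more negative, and of 22 lysosome genes 11 and 2. Slc16a3, the lactate exporter MCT4, was at 12.65, 12.88 and 13.02 (P5 PBS), 12.36, 12.56 and 12.72 (P5 IL1B), 11.40, 11.62 and 11.89 (P10 PBS) and 11.65, 12.28 and 12.41 (P10 IL1B), with a response of -0.29 at P5, a rise of 0.56 at P10 and a difference of 0.85 (adjusted p = 0.00034). Pgk1 and Ldha had differences of 0.71 and 0.65, and the progranulin gene Grn and the cathepsin gene Ctsz of 0.50 and 0.80. The glucose transporter Slc2a3 went against them, with a rise of 2.13 at P5 and a difference of -1.94. In the fit blocked by slide, 2 glycolysis genes had a more positive and 1 a more negative difference, and of the lysosome genes 1 and 2, and those of Slc16a3 (0.63, adjusted p = 0.22), Pgk1, Grn and Ctsz did not pass. Among other reversed responses, the neutrophil chemokine receptor Cxcr2 and the adrenergic receptor Adrb1 rose by 2.27 and 1.19 at P5 and fell by 0.67 and 0.66 at P10, while Wipf3, an actin regulator, and the adenylate kinase Ak4 fell by 2.26 and 1.44 and rose by 0.74 and 0.64. Their differences of -2.94, -1.85, 3.00 and 2.08 passed with slide as a block as well (adjusted p = 0.00017, 1.3e-05, 0.0037 and 0.011).

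Genes of the myelin sheath were among the late falls. Of 14 oligodendrocyte markers, 5 fell and 1 rose at P5, 9 fell and none rose at P10, and 5 responses were more negative and 1 more positive at P10, with medians of -0.62, -1.18 and -0.63. Their mean level per array was 8.04 to 8.52 with PBS and 7.40 to 8.01 with IL1B at P5, and 9.92 to 11.45 and 9.18 to 9.80 at P10. Cldn11, the claudin of myelin, was at 7.22, 7.57 and 8.25 (P5 PBS), 6.84, 7.28 and 7.89 (P5 IL1B), 9.43, 10.58 and 12.07 (P10 PBS) and 8.18, 8.64 and 9.29 (P10 IL1B). The P10 groups were separate, and it fell by 2.02 at P10 (adjusted p = 0.00045) with a difference of -1.67 (adjusted p = 0.011). Mobp and Mog had differences of -2.41 and -1.56. These genes are known from oligodendrocytes, and the part of such cells, or of their RNA, in the CD11B+ samples was not tested. When slide was a block, no difference of the list passed, with a median of -0.34.

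Haemoglobin and other erythroid genes were among the largest late and reversed responses. Hba-a1 was at 15.61, 15.90 and 17.18 (P5 PBS), 14.89, 15.19 and 15.65 (P5 IL1B), 15.08, 15.60 and 17.15 (P10 PBS) and 16.56, 16.97 and 17.10 (P10 IL1B). It fell by 0.80 at P5 (adjusted p = 0.038), rose by 1.07 at P10 (adjusted p = 0.019) and had a difference of 1.88 (adjusted p = 0.0017). The highest value at P5 was that of P5 PBS replicate 5 and the highest PBS value at P10 that of replicate 6. In the fit blocked by slide, the difference was 1.00 (adjusted p = 0.22) and the P5 response -0.75 (adjusted p = 0.19). The 4 erythroid markers averaged 10.42 to 11.58 and 9.89 to 10.38 at P5 and 9.86 to 12.06 and 11.06 to 11.75 at P10, with PBS and IL1B. The part of red blood cells in these and other responses was not tested.

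**Figure D5:**
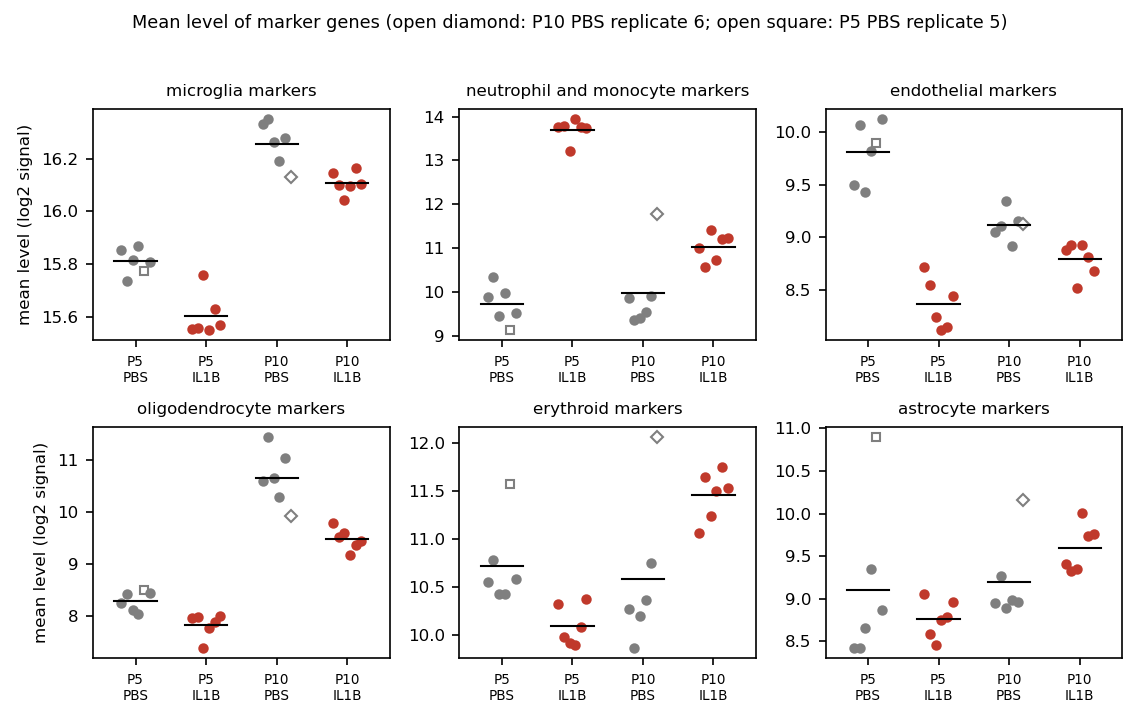
Mean log2 level of 6 marker lists on each of the 24 CD11B+ arrays, by group, with the group mean as a line and P10 PBS replicate 6 as an open diamond. Microglia markers lie between 15.55 and 16.35, with group means of 15.81 (P5 PBS), 15.60 (P5 IL1B), 16.26 (P10 PBS) and 16.11 (P10 IL1B). Neutrophil and monocyte markers reach 13.21 to 13.94 only on P5 IL1B arrays. P10 PBS replicate 6 lies among or above the P10 IL1B arrays for neutrophil and erythroid markers.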

How the data were processed

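RNA of 24 CD11B+ samples was labelled with Cy3 by the authors and hybridised to 1-color Agilent mouse arrays, 1 per sample, and quantified with Agilent Feature Extraction (10.7.3.1 per the file headers). The deposited scanner files hold a background-subtracted intensity for each spot, and the deposited matrix holds linear values that equal the ratio of this signal to its array's median within 1.86e-05 (log2). Samples were grouped by their titles. For the P10 samples, title, source and stage give P10 although 1 label field reads P5.

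From these deposited intensities, log2 values of 59305 spots besides controls were computed, 184 non-uniform spots were left out, arrays were quantile-normalized over the 24 CD11B+ arrays and spots were averaged into 55681 probes, with no filter on dim probes. Between 54.1% and 63.1% of probes per array exceeded background, no spot was saturated, and arrays of a group correlated at 0.962 to 0.994. With 6 arrays per group, precision is limited by their number. A fit of the 4 groups with limma 3.58.1 (R 4.3.3, figures with matplotlib 3.10.9) gave the P5 response, the P10 response and their difference, with Benjamini-Hochberg adjustment over all probes. The labels name 6 mice per group and the study's methods describe pooled brains within a sample and independent replicates, so p-values measure the spread between such samples. The steps were tested on simulated data. Where a gene had several probes, the one with the most signal was used.

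Genes were named from the fixed lists, from the study's text, or as the 8 with the largest difference (for lasting responses, the largest mean response) in each class among probes above background on all 24 arrays. The members, lists and rules were chosen with earlier results of these data known. Gene names were updated and promoters taken from RefSeq tables (GRCm38.p6), of which 27235 probes carry a name, and promoters of 1 chromosome were not used here. Probes lie on mm9 in the files. Single values of some list members are not reported here.

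Replicate numbers were checked for pairing of samples: deviations of same-numbered samples correlated at -0.28 to 0.21, so no pairing was used. Results were recomputed with 75th percentile scaling, normexp correction of the background (offset 50), normalization over 48 arrays, the matrix values, a filter on dim probes, an equal-variance test in place of moderated variances, a fit for each age, other fold thresholds, the mean over the probes of a gene, blocks for slide, scan day and replicate number, and leaving out each array. Leaving out P10 PBS replicate 6 from the lists, and P5 PBS replicate 5 together with it, was chosen after seeing the data.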

Additional observations from a re-analysis of the deposited data

Results flagged for a closer look

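In each of the 4 groups, the array farthest from the others was compared with Dixon's critical value for 6 arrays, as the gap to the nearest array divided by the range of the group, for 40 genes (160 groups, 23 of them past it) and for the means of 11 marker lists (44 groups, 7 past it). For a single group, chance gives about 1 in 20. Genes and lists share the same arrays, so these counts are not of independent tests.

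P10 PBS replicate 6 was far above its group for Serpina3g (0.903), Cxcl9 (0.894), H2-T23 (0.866), C4b (0.859), S100a8 (0.843), Tgtp2 (0.786), Itgax (0.757), Ccl8 (0.753), Lrg1 (0.743), Axl (0.732), Cd74 (0.725) and Retnlg (0.631), and for the means of the pericyte (0.81), neutrophil and monocyte (0.779) and astrocyte markers (0.698). P5 PBS replicate 5 was far above its group for Sqle (0.818), Hba-a1 (0.785) and C4b (0.681) and for the means of the neuron (0.749), erythroid (0.688) and astrocyte markers (0.628), and far below it for Fkbp5 (0.631). P5 IL1B replicate 3 was far below its group for S100a8 (0.848), Retnlg (0.807), Il1r2 (0.738) and Lrg1 (0.7) and for the mean of the neutrophil and monocyte markers (0.723). Further arrays apart were P5 PBS replicate 3 for Cxcl9 (0.775), P10 IL1B replicate 3, high for Il10 (0.648), and P10 IL1B replicate 2, low for Slc16a3 (0.695). The cause of these gaps was not tested.

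The test of the difference between the responses at P10 and P5 passed on 5872 probes in the positive and 3506 in the negative direction, and 28 falls and 12 rises at P5 were reversed at P10.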

How the results depend on the processing

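Of the differences of 154 named genes recomputed under all settings, 5297 values kept their direction and their side of the threshold, 187 no longer passed it, 59 newly passed it, and 1 turned: the difference of Cdk1, -0.16 and not called here, was 0.63 (adjusted p = 0.0327) over 48 arrays with slide as a fixed block. Of 23 further gene lists, 137 medians moved by less than the spread between arrays and 47 by more. With slide as a fixed block within the CD11B+ arrays, 1542 differences were more positive and 1054 more negative, 1403 probes were higher and 1475 lower at P5, 9 higher and 7 lower at P10, and the classes held 725 fading rises, 633 fading falls, 5 lasting rises, 0 lasting falls, 3 late rises, 4 late falls and 0 reversed responses. The median P10 response of the probes higher and lower at P5 was then 0.185 and -0.112, and the median differences were -2.19 (acute phase), -4.71 (neutrophil and monocyte), 0.75 (cytokines) and 1.47 (endothelial). Within a slide, only 1 PBS array at P5 and 2 at P10 stand beside IL1B arrays of their age. P10 PBS replicate 6 is 1 of these 2. Over 48 arrays with slide as a fixed block, the numbers were 3685 and 1924 for differences, 297 and 321 at P10, 138 and 111 lasting, 37 and 34 late rises and falls and 12 reversed responses, with a median P10 response of -0.119 for the probes lower at P5 and median differences of -0.82 (glucocorticoid), -1.999 (acute phase) and -4.32 (neutrophil and monocyte). Under a random block for slide, 2251 differences were more negative, 451 and 270 probes were called at P10, 255 and 122 responses lasted, 64 and 43 were late and 15 reversed.

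With normexp correction, 1416 and 1226 probes were called at P5 and 474 and 343 at P10, with 958 fading falls, 304 lasting rises, 106 lasting falls, 84 late rises and 17 reversed responses, and median differences of -1.37 (acute phase), 0.35 (cytokines) and 0.87 (endothelial). With a fold threshold on the difference and none on the responses, the numbers were 3008 and 2216 for differences, 5230 and 8849 at P5, 2523 and 1963 at P10, 1064 and 873 lasting and 626 reversed. On the matrix values, 1375 differences were more negative, 327 probes were lower at P10 and 82 falls were late, the median P10 responses were 0.357 and -0.0191, and the median differences were -0.52 (glucocorticoid), -1.31 (acute phase), 1.11 (cytokines) and 1.17 (DNA replication and mitosis). Without P5 PBS replicate 5 and P10 PBS replicate 6 together, 1482 and 1440 probes were called at P10, 366 rises and 561 falls were late and 90 responses reversed, with a median P10 response of 0.382 for the probes higher at P5 and a median difference of -1.20 (acute phase). Single changes were a median P10 response of 0.218 and a cytokine median of 0.88 with the 75th percentile scaling, 254 late falls with the filter on dim probes, 314 lasting rises with a fit for each age, and a cytokine median of 0.89 over all probes of a gene.

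Leaving out 1 array at a time gave 5258 to 6149 and 2904 to 4128 differences, 2266 to 2577 and 3021 to 3606 calls at P5, 1022 to 1244 fading rises, 1749 to 2200 fading falls, 149 to 240 lasting falls and median P10 responses of 0.268 to 0.352 and -0.0879 to -0.0507. Calls at P10 were 617 to 1264 higher and 349 to 1063 lower, with 364 to 676 lasting rises, 93 to 280 late rises, 70 to 424 late falls and 30 to 70 reversed responses. For the P10 calls and the lasting and late classes the lowest number came without P10 PBS replicate 2 and the highest without P10 PBS replicate 6. Without the latter the acute phase median was -1.15, the endothelial 1.15, the neutrophil and monocyte -2.64, the oligodendrocyte -0.84, the cytokine 0.96, the class II -0.50, the interferon -0.33, the white-matter 0.86, the mitosis 0.93 and the glucocorticoid -0.69. The causes of these shifts were not tested.

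With the replicate number as a block, 5174 differences were more positive and 3076 more negative, 2348 and 3246 probes were called at P5 and 723 and 540 at P10. The numbers of the samples do not pair them, and 1 of the 12 same-numbered pairs correlated best with its own number.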
